A study of Mus musculus with 8 samples.

Results

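Of 8 hearts, 2 shared a slide, named slide A here, and are described against the other 6: 1 wild-type (WT) heart, WT 4, and 1 heart overexpressing PKR2, PKR2 4. They were chosen by the slide code in their titles. The comparison arrays were WT 1, WT 2 and WT 3 and PKR2 1, PKR2 2 and PKR2 3, of which WT 3 and PKR2 3 shared another slide, slide B. All 8 samples are labelled as hearts of male mice aged 12 weeks, 1 sample on each 1-colour Agilent oligonucleotide array. PKR2 is taken to mean the prokineticin receptor encoded by Prokr2. The promoter that drives the transgene and the time of day of dissection are not given in the sources used here. Slide A was singled out because its arrays differed in measured values, so its differences are a description and carry no test. A level below is the log2 processed signal minus the array's 75th percentile, so that 0 is that percentile. A difference is slide A minus the 6 others with genotype in the fit, and the number after ± is its standard error. All 14952 features well above background on 6 or more of the 8 arrays entered the fit, 13382 of them with a gene symbol.

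The circadian clock is the transcriptional oscillator that runs in heart muscle as in most tissues. Some of its genes were among the features that lay furthest from the other 6 hearts on both slide A arrays. Arntl lay above those hearts and Per1, Per2 and Per3 below. Dbp also lay below all 6, by a smaller gap. CLOCK and BMAL1, the protein of Arntl, bind E-box sequences and switch on Per, Cry, Nr1d1, Ciart and the PAR-bZIP factors Dbp, Tef and Hlf; PER and CRY proteins then repress CLOCK and BMAL1. REV-ERB proteins (Nr1d1, Nr1d2) repress and ROR proteins activate Arntl through a separate site, so Arntl runs in opposite phase to Per and Dbp. The PAR-bZIP factors in turn bind D-boxes in genes such as Per3.

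WT 4 and PKR2 4 together lay above all 6 other arrays for 643 features (4.3% of those fitted) and below all 6 for 698 (4.67%), or 8.97% in all. With normexp, a model-based background correction used here with an offset of 50, these counts were 127 and 413, and from the authors' deposited table they were 354 and 664. Most of these separations were small: the median gap between the nearer slide A array and the nearest other array was 0.07, and it exceeded 0.5 for 30 features, 4 higher and 26 lower. Of these 30, 8 were clock genes: Arntl on the higher side and Per1, Per2, Per3, Ciart, Tef, Bhlhe41 and Klf9 on the lower. The limma fit put 1 feature, Arntl, past an adjusted p of 0.05 (0.00669% of features), a count that is given for scale because the slide was chosen on the same values. Slide B also held 1 WT and 1 PKR2 heart, and there 5.56% of features lay outside the range of the rest (1.77% higher, 3.8% lower). At an unadjusted p under 0.05 limma gave 413 features for slide B and 775 for slide A. That order turned with normexp (1360 for slide B, 271 for slide A) and with the authors' deposited values (853 and 609). Past an adjusted p of 0.05 in limma the slide B count was 0 (0% of features). Arntl missed that threshold without any 1 of WT 1, WT 2, WT 3, WT 4, PKR2 2, PKR2 3 or PKR2 4, and the count was 3 without WT 4; the slide B count was 1 without WT 3.

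The slide A arrays also stood apart in how they were read. They and WT 2 were scanned once, at low range, and the other 5 arrays over an extended range; the 75th percentiles of processed signal were 116 (WT 4), 87.5 (PKR2 4) and 40.9 (WT 2), against 318 to 770. For every feature counted as outside the range of the others, WT 2 lay with the other 5 hearts by definition of the count. With scan range as a covariate the Arntl difference was 2.61 in place of 2.88, and there it rests on WT 2 as the lone comparison at that range. In the same fit the differences were 0.43 for Clock, -0.07 for Cry1 and 0.03 for Cry2, and the median over the core clock list was -0.07 in place of -0.44. Spots well above background made up 57.8% and 56.3% on slide A and 48.3% to 67.1% on the others. The spike-in control of highest signal stood at 8.14 on WT 4, 7.42 on PKR2 4 and 7.48 to 7.70 on the others. Slide and hearts cannot be told apart for slide A, since neither heart was measured on another slide.

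The 300 bases around the start of 6 of these genes are shown because the genes lay on opposite sides of the other hearts and the clock's binding motifs can be read in them. They span a RefSeq start in build GRCm38.p6: Arntl at chr7:113207261-113207560 on the plus strand, Per1 at chr11:69098699-69098998 on the plus strand, Ciart at chr3:95882179-95882478 on the minus strand, Tef at chr15:81802423-81802722 on the plus strand, Bhlhe41 at chr6:145865371-145865670 on the minus strand and Per3 at chr4:151044616-151044915 on the minus strand. Capitals mark the E-box CACGTG in Per1, Ciart, Tef and Bhlhe41, the D-box TTATGTAA in Per3 and the half-site AGGTCA, which ROR and REV-ERB proteins recognise, in Arntl.
Arntl: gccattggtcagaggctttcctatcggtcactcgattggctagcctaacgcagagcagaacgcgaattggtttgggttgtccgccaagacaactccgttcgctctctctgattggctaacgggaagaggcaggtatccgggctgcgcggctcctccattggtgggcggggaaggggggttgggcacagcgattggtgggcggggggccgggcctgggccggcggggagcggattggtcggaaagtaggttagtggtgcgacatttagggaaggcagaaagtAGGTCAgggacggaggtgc
Per1: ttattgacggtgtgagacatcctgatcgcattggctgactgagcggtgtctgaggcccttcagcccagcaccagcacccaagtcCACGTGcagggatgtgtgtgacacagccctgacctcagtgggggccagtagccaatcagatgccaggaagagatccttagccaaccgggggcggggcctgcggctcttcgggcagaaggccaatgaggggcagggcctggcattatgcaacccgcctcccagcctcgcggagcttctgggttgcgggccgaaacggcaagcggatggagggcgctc
Ciart: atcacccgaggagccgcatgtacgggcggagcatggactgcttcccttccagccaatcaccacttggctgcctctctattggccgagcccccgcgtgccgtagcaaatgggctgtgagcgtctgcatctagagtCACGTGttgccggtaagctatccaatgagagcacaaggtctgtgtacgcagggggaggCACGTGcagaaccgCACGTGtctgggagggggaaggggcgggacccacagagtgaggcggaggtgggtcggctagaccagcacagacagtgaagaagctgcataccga
Tef: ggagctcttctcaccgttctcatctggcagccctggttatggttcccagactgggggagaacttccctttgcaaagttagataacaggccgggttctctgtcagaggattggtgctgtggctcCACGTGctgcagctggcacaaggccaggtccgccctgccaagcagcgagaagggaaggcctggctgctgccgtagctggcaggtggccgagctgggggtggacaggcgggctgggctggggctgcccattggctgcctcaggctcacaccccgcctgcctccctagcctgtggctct
Bhlhe41: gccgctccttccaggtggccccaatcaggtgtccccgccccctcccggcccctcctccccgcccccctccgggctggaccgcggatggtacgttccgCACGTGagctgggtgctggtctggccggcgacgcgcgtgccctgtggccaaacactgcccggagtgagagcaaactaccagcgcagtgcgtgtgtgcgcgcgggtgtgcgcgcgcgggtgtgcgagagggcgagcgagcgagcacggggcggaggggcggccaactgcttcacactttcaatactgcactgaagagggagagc
Per3: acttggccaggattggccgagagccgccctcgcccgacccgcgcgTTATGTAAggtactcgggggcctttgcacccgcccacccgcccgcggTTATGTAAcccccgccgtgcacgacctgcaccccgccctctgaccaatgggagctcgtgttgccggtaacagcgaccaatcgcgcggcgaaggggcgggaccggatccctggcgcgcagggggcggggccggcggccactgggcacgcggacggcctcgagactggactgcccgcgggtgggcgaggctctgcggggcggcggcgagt

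All 3 motifs were searched on both strands, the E-box being its own reverse complement, and no 2 matches share a letter in the stretches shown. Promoters were found for 25 of the 32 genes of the 2 clock lists used below. The E-box stood in at least 1 promoter of 7 of these 25 genes, against 8.09% of the 27025 genes in the table. Of the 10 clock genes with a promoter that lay below all other arrays, 5 held it: Per1, Ciart, Tef, Bhlhe41 and Tspan4. The half-site stood in promoters of 7 of the 25 genes, against 18.1% of genes: all 3 genes above all other arrays (Arntl, Clock and Leo1), 1 of the 10 below (Per1) and 3 that overlapped. In the Per1 stretch shown it stands once on the other strand, left in lower case. The D-box stood in 1 of the 25 genes, Per3, against 1.11% of genes. A match in this window is a string of letters and was not tested as a binding site. Ciart carried 3 E-boxes and Per3 2 D-boxes in the stretch shown, while the single promoters listed for Dbp, Hlf and Klf9 held no E-box in this window.

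The activators Arntl and Clock lay above all other arrays on slide A. Arntl stood at -0.87 on WT 4 and -0.28 on PKR2 4, and on the others at -3.46, -3.38 and -3.86 in WT and -2.81, -3.68 and -3.51 in PKR2. The groups did not overlap, the nearest other array being 1.94 below, and the difference was 2.88 ± 0.26, a 7.34-fold higher signal. Its probe lies at chr7:113104645-113104704 in build mm8, the build of the array design. Clock, the partner of Arntl, stood at 1.73 and 1.75 on slide A and between 0.48 and 1.54 on the others (median 1.11), a difference of 0.72 ± 0.30. A second Clock probe also lay above all others, with a difference of 0.80. Npas2, which can replace Clock, was well above background on 1 array only and has no usable level.

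In the repressor arm, the 3 Per genes and Ciart lay below all other arrays and the Cry genes did not. Per1 stood at 1.52 and 1.63 on slide A and between 2.23 and 2.80 on the others, median 2.52 (-0.91 ± 0.17). For Per2 the slide A values were -0.98 and -1.11 and the others ran from -0.37 to 0.62, median 0.37 (-1.29 ± 0.28). Per3 stood at -4.40 on WT 4 and -3.37 on PKR2 4, with the others between -2.52 and -1.49, median -2.17 (-1.81 ± 0.30). In each Per gene both slide A hearts lay below every other heart. A second probe for Per2 differed by -0.13 with its arrays overlapping, so the 2 Per2 probes disagree. Ciart, a repressor of CLOCK and BMAL1 also called Chrono, stood at -0.19 and -0.98, against 0.41 to 1.56 elsewhere, median 0.98 (-1.57 ± 0.30, a 2.97-fold lower signal). Cry1 and Cry2, the PER partners, differed by -0.96 ± 0.34 and -0.55 ± 0.36 and overlapped the other hearts. The Cry1 difference was 0.58 with normexp and -0.16 in the authors' deposited table, and that of Cry2 was 0.03 with scan range as a covariate, so no direction is given for either.

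The nuclear receptors of the second loop did not separate. Nr1d1, the gene of REV-ERB alpha, stood at 0.87 and 0.70 within a range of -0.08 to 1.25, and its 3 probes differed by 0.40, -0.22 and -0.66, so no direction can be given. Nr1d2 differed by -0.12 ± 0.20 and Rora by -0.44 ± 0.23, both with overlapping arrays. The kinases that set PER stability also overlapped, with Csnk1d at -0.05 ± 0.25 and Csnk1e at -0.53 ± 0.58. In all, 2 of 15 fitted core clock genes lay above and 4 below all other arrays, against 4.3% and 4.67% of all features, and the list's median difference was -0.44 against -0.003 for all features. With normexp background correction the Per3 difference was -0.05 and Arntl 1.77, and in the authors' deposited table Per3 was -0.69 and Arntl 1.35.

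**Figure D1:**
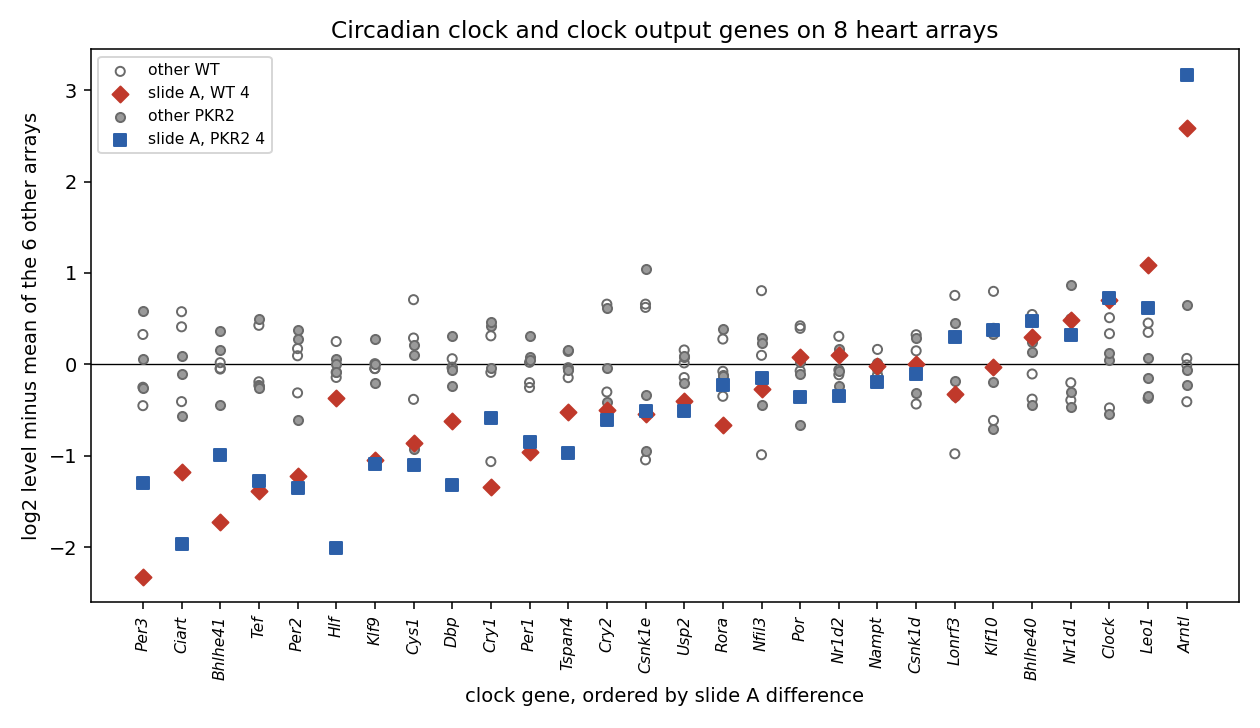
Log2 level of fitted clock and clock output genes on each array, minus the gene's mean over the 6 other arrays; diamonds are WT 4, squares PKR2 4, open circles the other WT and grey circles the other PKR2 arrays. Both slide A symbols sit near 3 for Arntl and below all circles for 11 genes, from Per3 and Ciart at the left to Usp2.

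The PAR-bZIP genes Dbp, Tef and Hlf, and Bhlhe41, lay below all other arrays on slide A in both genotypes. Dbp, which encodes a PAR-bZIP activator of metabolic genes, stood at 6.21 and 5.50 on slide A and between 6.59 and 7.14 on the others, median 6.79 (-0.97 ± 0.22, a 1.96-fold lower signal). Tef, its relative, stood at -3.07 and -2.95 against -1.94 to -1.18, median -1.89 (-1.33 ± 0.27), and 2 further probes differed by -1.14, with no overlap, and -0.77, with overlap. Hlf, the third member of that family, was uneven: it stood at -0.12 on PKR2 4 but at 1.52 on WT 4, just below the lowest of the others at 1.74. Bhlhe41, a repressor that competes for E-boxes, stood at -3.64 and -2.90 against -2.36 to -1.55, median -1.93 (-1.36 ± 0.25).

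Klf9, a zinc-finger factor induced by the clock and by glucocorticoids, had almost equal values on both slide A arrays, 2.23 and 2.19, with the others between 3.08 and 3.56, median 3.26 (-1.07 ± 0.18). Its second probe differed by 0.01, so the 2 Klf9 probes disagree. Tspan4, a tetraspanin, differed by -0.75 ± 0.18 and Usp2, a deubiquitinase, by -0.46 ± 0.17, both below all other arrays. Leo1, a subunit of the PAF1 complex, lay above them, at 1.44 and 0.97 against -0.02 to 0.81. Values overlapped for Cys1, Nfil3, Bhlhe40 and Por, among others. Of 16 fitted clock output genes, 8 lay below and 1 above all other arrays, against 4.67% and 4.3% of all features. The list median was -0.60. With normexp the Tef difference was -0.04 and that of Bhlhe41 turned to 0.13, and in the authors' deposited table they were -0.54 and -0.49. Over both lists, which share Ciart, 14 of 30 genes (46.7%) lay outside the range of the others, against 8.97% of all features. Of the 30, 25 deviated in the same direction on WT 4 and PKR2 4. The 14 genes outside the range do so by definition of that count, and the share over all features is not given. The 2 hearts contributed in different proportions: over the 11 lower clock genes the median deviation from the rest of the own genotype was -1.02 on WT 4 and -1.27 on PKR2 4.

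A filter of 6 arrays fixes which features are seen. Cry1, kept with 6 arrays above background, ran from -4.48 to -2.68, and Wee1, a mitotic kinase and clock target left out with 5, stood at -4.93 and -4.44 on slide A and between -4.03 and -3.02 on the others. The filter can keep a feature that is above background on all arrays but those of slide A, and cannot keep one that is above background there alone. Of probes well above background on the 6 others and on neither slide A array there were 5, and 3 of these had a symbol that is not a bare identifier. Slc45a1, a sugar transporter, was at least 2.37-fold lower on slide A in the mean. Flrt2, a cell adhesion protein, was at least 1.89-fold lower and Wdfy3, an autophagy adaptor, at least 1.77-fold. These bounds set the bright group's mean against, per array, the higher of the dim probe's signal and the lowest signal well above background. The arrays overlapped for Flrt2, with PKR2 4 at -4.22 and PKR2 3 at -4.23. They also did for Wdfy3, with PKR2 4 at -4.20, WT 3 at -4.25 and PKR2 3 at -4.46. In the other direction there were 3 probes, among them A330023F24Rik, at least 2.37-fold higher in the mean although WT 4 (-4.64) lay among the others, and Crocc2, at least 1.38-fold higher.

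Glucocorticoid-responsive genes overlapped the clock output genes in part. This list of genes switched on by the stress hormone receptor, with the metallothioneins, had 21 fitted members and a median of -0.52. Of these, 4 lay below all other arrays (Klf9, Per1, Tat and Tsc22d3) and 1 above, against 4.67% and 4.3% of all features. As a whole the list did not separate the slide. Its mean level relative to the mean over all arrays was -0.16 on WT 4 and -0.38 on PKR2 4. It was as low on WT 1 (-0.22) and PKR2 1 (-0.36), and 0.06 to 0.53 on the rest. Tsc22d3, the glucocorticoid-induced leucine zipper, stood at 3.58 on WT 4 and 3.26 on PKR2 4 against 3.81 to 4.28, and all 3 of its probes lay below the others (-0.63, -0.41 and -0.51). Tat, tyrosine aminotransferase, differed by -0.70 ± 0.22. Pdk4, which restrains glucose oxidation, was the member above, at 6.17 and 5.89 against 5.08 to 5.68 (0.60 ± 0.20).

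Larger mean differences in that list did not separate the slide. Ddit4, an inhibitor of mTORC1, stood at 4.90 and 4.39 on slide A, but WT 1 at 4.56 and PKR2 1 at 4.30 were as low, while the other 4 arrays ran from 6.10 to 7.44 (-1.26 ± 0.79). Cebpd and Cebpb, acute-phase transcription factors, had the same arrangement, with slide A, WT 1 and PKR2 1 at or below 4.19 for Cebpd and the other 4 arrays at or above 5.07. Angptl4, a lipoprotein lipase inhibitor, stood at 3.20 and 2.72 within a range of 0.62 to 3.78. Fkbp5, a receptor chaperone, stood at -1.86 and -1.14, the latter above the lowest other array at -1.22.

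Among named features well above background on all arrays and with both slide A arrays below all others, the largest lower differences came from another set, and there 1 array decided the size. The 13 features with the largest lower difference apart from Per3 were Cdk5r2, Lars2, Rn28s1, Rusc1, Syt10, H1f10, Synpo, Tfap2e, Grin2d, Tfam, Klf2, Syn1 and Cox17, from -3.55 ± 0.98 to -1.83 ± 0.52. Lars2, named for mitochondrial leucyl-tRNA synthetase, stood at 4.19 on WT 4, 7.58 on PKR2 4 and 7.97 to 10.52 on the others, median 9.44 (-3.48 ± 0.91). Rn28s1, the large-subunit ribosomal RNA, stood at -3.61, -0.02 and 0.12 to 1.84 in the same order (-2.82 ± 0.84). Rn18s, the small-subunit ribosomal RNA, stood at 7.06 and 8.80, with the others between 8.94 and 10.60 (-1.73 ± 0.56).

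By the choice of these 13 features, both slide A arrays lay below all others. WT 4 was below PKR2 4 for all 13, and WT 2 was the highest array for all 13. The deviation from the other 3 hearts of the genotype ran from -6.02 to -2.69 on WT 4 and from -1.36 to -0.72 on PKR2 4. Without WT 4 the difference for Lars2 was -1.35 and for Cdk5r2 -1.08. Their values moved together over the 8 arrays (lowest pairwise Pearson r 0.937; 0.838 over the 7 arrays without WT 4), which describes features chosen for sharing this difference. These genes have varied roles: Klf2 is a flow-responsive endothelial factor, Tfam packages mitochondrial DNA, Cox17 delivers copper to cytochrome oxidase, and Syn1, Synpo, Grin2d and Syt10 act at synapses.

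Other probes of the same genes did not show it. Of these 13 genes, 5 had further fitted probes: the other Rusc1 probe differed by 0.17, those of Synpo by 0.08 and 0.05, those of Tfam by 0.43 and -0.19, and that of Cox17 by -0.07. The second Klf2 probe was the exception, at 5.16 and 5.17 on slide A against 5.51 to 6.25 on the others. For Rusc1, Synpo, Tfam and Cox17 a gene-level direction therefore cannot be given. Probe sequences were not used here.

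**Figure D2:**
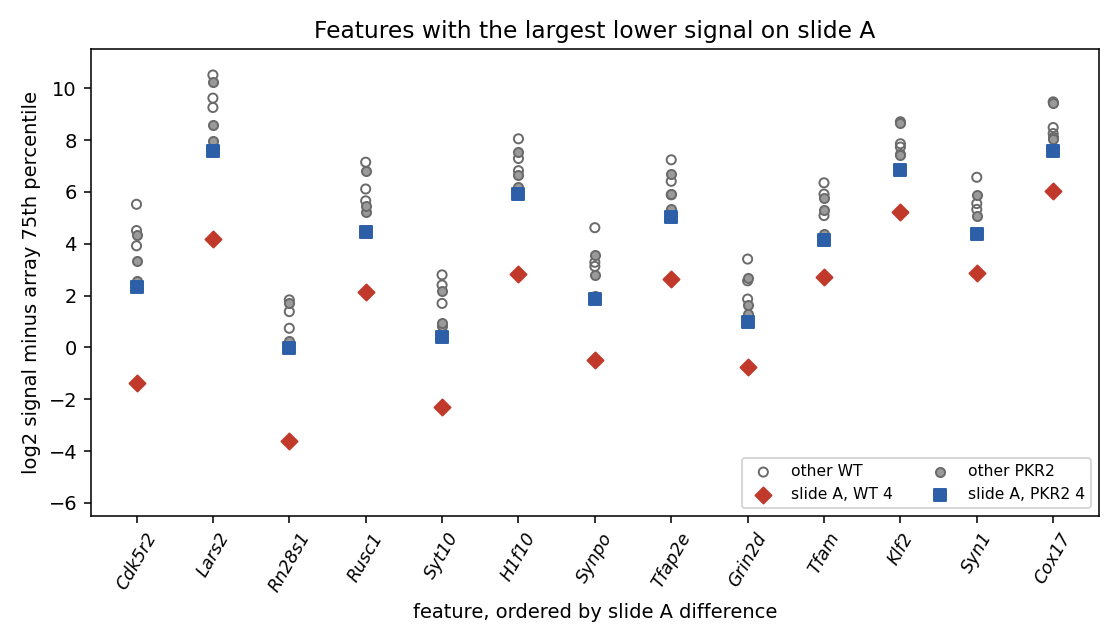
Log2 signal of the 13 features with the largest lower difference after Per3 was set aside, 1 symbol per array with the same symbols as for the clock genes. WT 4 (diamonds) is lowest for every feature. PKR2 4 (squares) sits below the 6 others, as the choice of features requires.

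The 2 slide A arrays deviated in common for few features. Measured against the other 3 hearts of the genotype, WT 4 deviated by more than 1 for 522 features and PKR2 4 for 273, and 53 did so in the same direction on both (22 higher, 31 lower) and 9 in opposite directions. The same count for the other 6 arrays ran from 370 to 803, so neither array deviated more than the rest in number of features, and PKR2 4 had the fewest. Across the 14952 features the deviations of the 2 arrays correlated at r = 0.34 on slide A and at r = 0.11 on slide B; each pair shares its slide, its scan and the probes, and features are not replicates.

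**Figure D3:**
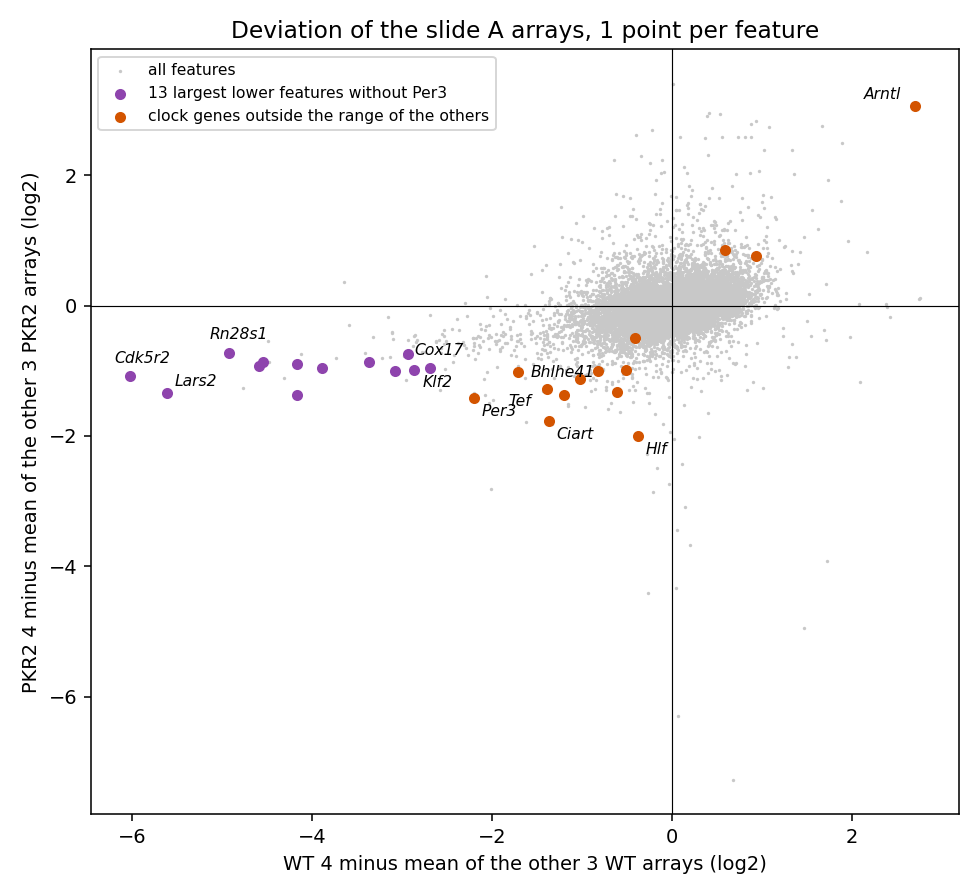
Deviation of WT 4 (horizontal) and of PKR2 4 (vertical) from the mean of the other 3 arrays of their genotype, in log2, 1 point per feature. Clock genes outside the range of the others lie along the diagonal with Arntl far at the upper right, while the 13 lower features extend along the horizontal axis to -6.02.

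Higher signal on slide A was smaller in size. Among named genes well above background on all arrays and with both slide A arrays above all others, the 14 largest were Slc4a7, Spon2, Tmem171, Slc15a2, Mycn, Olfr441, Slc41a3, Col5a3, Slc6a14, Cldn5, Adam19, Tnfrsf12a, Lamp3 and Leo1, from 1.47 ± 0.50 to 0.85 ± 0.25. Several encode transporters: Slc15a2 carries peptides, Slc41a3 magnesium and Slc6a14 amino acids. Slc41a3 stood at 3.78 and 3.80 on slide A and between 2.29 and 3.32 on the others (1.07 ± 0.25). Slc15a2 stood at -1.67 and -1.37 against -3.50 to -2.08 (1.26 ± 0.29). Spon2, a secreted matrix protein, stood at 0.11 and 0.88 against -1.32 to -0.36, and its second probe differed by 1.06 with overlap.

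The matrix gene Col5a3 and the endothelial gene Cldn5 were also among them. Col5a3, a fibrillar collagen chain, stood at 1.96 and 2.19 against 0.68 to 1.54 (1.06 ± 0.24). Cldn5, the endothelial claudin, stood at 2.19 and 1.91 against 0.56 to 1.74 (0.97 ± 0.36). Mycn, a growth-promoting transcription factor, stood at -0.69 and -0.24, and the nearest other array, PKR2 1, at -0.82. Slc4a7, a bicarbonate cotransporter, stood at 5.68 on WT 4 and 4.71 on PKR2 4, close to PKR2 3 at 4.53, and its 2 further probes each differed by 0.03; with the median of its probes in place of the brightest one the difference turned to -0.12. For Adam19, a membrane protease, the further probes differed by 0.17 and 0.11. None of the 5 further probes for the 14 genes lay above all other arrays.

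Some features of low signal, named here after their values were seen, also separated. Angptl7, a secreted angiopoietin-like protein, stood at -2.90 and -2.76 against -1.62 to -0.37 (-1.71 ± 0.29). Mthfd1l, of mitochondrial folate metabolism, stood at -1.72 and -2.09, with the nearest other array 0.72 above the first (-1.35 ± 0.24). Fabp7, a fatty acid carrier of brain and glia, stood at -2.68 and -2.64 against -6.23 to -3.91, with 6 of the 8 arrays well above background. These sizes depend on the background correction: with normexp Angptl7 differed by -0.15 and Mthfd1l by -0.47, and in the authors' deposited table Angptl7 differed by -0.62 and Fabp7 by 0.36.

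Heart muscle genes served to check the tissue. All 19 cardiomyocyte markers were fitted and well above background on all 8 arrays, among them Tnnt2 (cardiac troponin T), Mb (myoglobin) and Mybpc3. Of the 19, 7 lay below all other arrays and none above, with a median of -0.26, and of 26 sarcomere genes 8 lay below and 1, Nebl, above, with a median of -0.26; quantile normalization turned both medians to 0.03 and 0.06, and the authors' deposited values turned the sarcomere median, so no direction is given for these lists. Tpm1, alpha-tropomyosin, stood at 8.40 and 8.73 against 8.78 to 9.74 (-0.61 ± 0.28), and Tnnt2 at 8.31 and 8.63 against 8.66 to 9.34 (-0.50 ± 0.22). Over all features, 4.67% lay below and 4.3% above all other arrays. Features as bright as these had lower values as a whole. Over the 768 features with a mean level over 5 the median difference was -0.10, and 69 lay below and 18 above all other arrays. The list's mean level relative to the 8-array mean was -0.18 and -0.16 on slide A and -0.08 to 0.25 on the others. In whole hearts the number of cells of a type and the RNA per cell cannot be told apart.

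Cell cycle genes were mixed. Of 23 fitted members, 7 lay above all other arrays and none below, against 4.3% and 4.67% of all features. By mean, 16 were higher and 7 lower, and the list median was 0.15. Mki67, a marker of proliferating cells, stood at -0.01 and -0.07 on slide A, with WT 1 next at -0.14 and the rest down to -1.06 (0.65 ± 0.27). Plk1, a mitotic kinase, differed by 0.68 ± 0.30, Prc1, of the spindle midzone, by 0.55 ± 0.22, Ccnb2, a mitotic cyclin, by 0.48 ± 0.20 and Pcna, the replication clamp, by 0.32 ± 0.16. The gaps were narrow: for Plk1 the slide A arrays stood at -1.98 and -2.23 and the nearest others at -2.28 and -2.29.

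Lipid genes had large mean differences, and their arrays overlapped. Of 25 cholesterol and lipogenesis genes, 20 had a higher mean, with a list median of 0.31. Only 1, Srebf2, lay above all other arrays (4%, against 4.3% of all features). Fasn, fatty acid synthase, stood at 8.35 and 7.70 within a range of 4.83 to 8.53 (1.45 ± 0.79), Scd1, the stearoyl-CoA desaturase, at 5.34 and 5.05 within 0.73 to 6.32, and Elovl6, an elongase, at 2.93 and 1.88 against -1.65 to 2.69. PKR2 1 and PKR2 2 held the low values of all 3. The 15 fitted adipocyte markers moved with them, and their list median was 0.76. The list's mean level relative to the 8-array mean was -1.64 and -1.57 on those 2 arrays and -0.19 to 1.02 on the other 4. It was 0.91 on WT 4 and 0.16 on PKR2 4. Adipoq, the adipocyte hormone adiponectin, stood at 3.88 and 2.97 within -0.64 to 4.25. The part of adipocyte RNA in the lipid gene values was not tested.

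**Figure D4:**
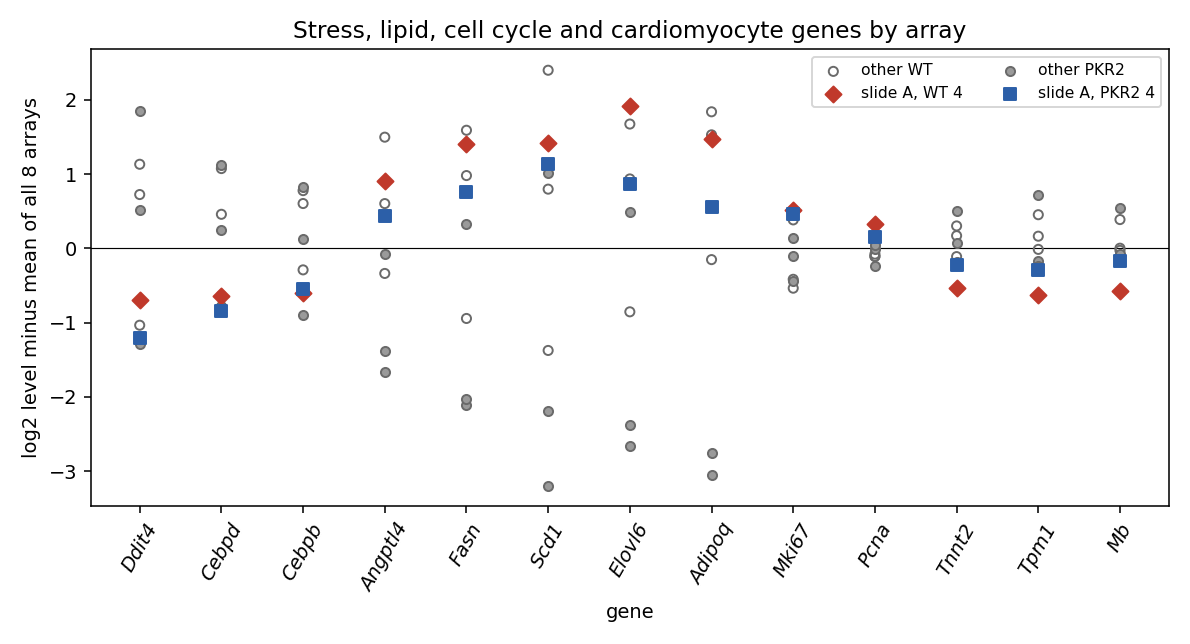
Log2 level of 13 genes from the glucocorticoid, lipid, adipocyte, cell cycle and cardiomyocyte lists, minus the gene's mean over all 8 arrays, 1 symbol per array with the same symbols as for the clock genes. At least 1 slide A symbol lies within the spread of the others for Ddit4 to Adipoq, and both lie outside it, by small gaps, for Mki67, Pcna, Tnnt2, Tpm1 and Mb.

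Interferon-stimulated genes had higher values on WT 4 than on PKR2 4, each set against its own genotype. Of 31 fitted genes 27 had a higher mean, yet 1, Ifi47, lay above all other arrays (3.2%, against 4.3% of all features). The median deviation was 0.51 on WT 4 and 0.01 on PKR2 4. Igtp, an immunity-related GTPase, stood at 4.34 on WT 4, 2.95 on PKR2 4 and 3.01 to 3.66 on the others. In the matrix list, 5 of 40 genes lay above all other arrays, including Col4a1 of the basement membrane (0.70 ± 0.26), Eln, elastin (0.67 ± 0.30), and Loxl2, a collagen crosslinker (0.61 ± 0.20), and 2 below, including Timp3, an inhibitor of metalloproteinases (-0.53 ± 0.24). Over all features 4.3% lay above and 4.67% below, and the matrix median was 0.03. Among markers of other cell types, none of the 14 fibroblast, 13 smooth muscle and pericyte, 15 macrophage or 10 Schwann cell genes fitted lay outside the range of the others. The share outside over all features was 8.97%, so finding none in lists this short says little. Other cell type lists did have members outside, among them 2 of 7 neutrophil and mast cell genes (above) and 2 of 9 atrial genes (below). Of 19 endothelial genes 1 lay above and 1 below. The remaining lists, these cell types included, had medians between -0.43 and 0.33. The control genes Gapdh, Actb and Hprt overlapped the other arrays, with differences of -0.13 ± 0.20, -0.39 ± 0.22 and -0.10 ± 0.36.

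**Figure D5:**
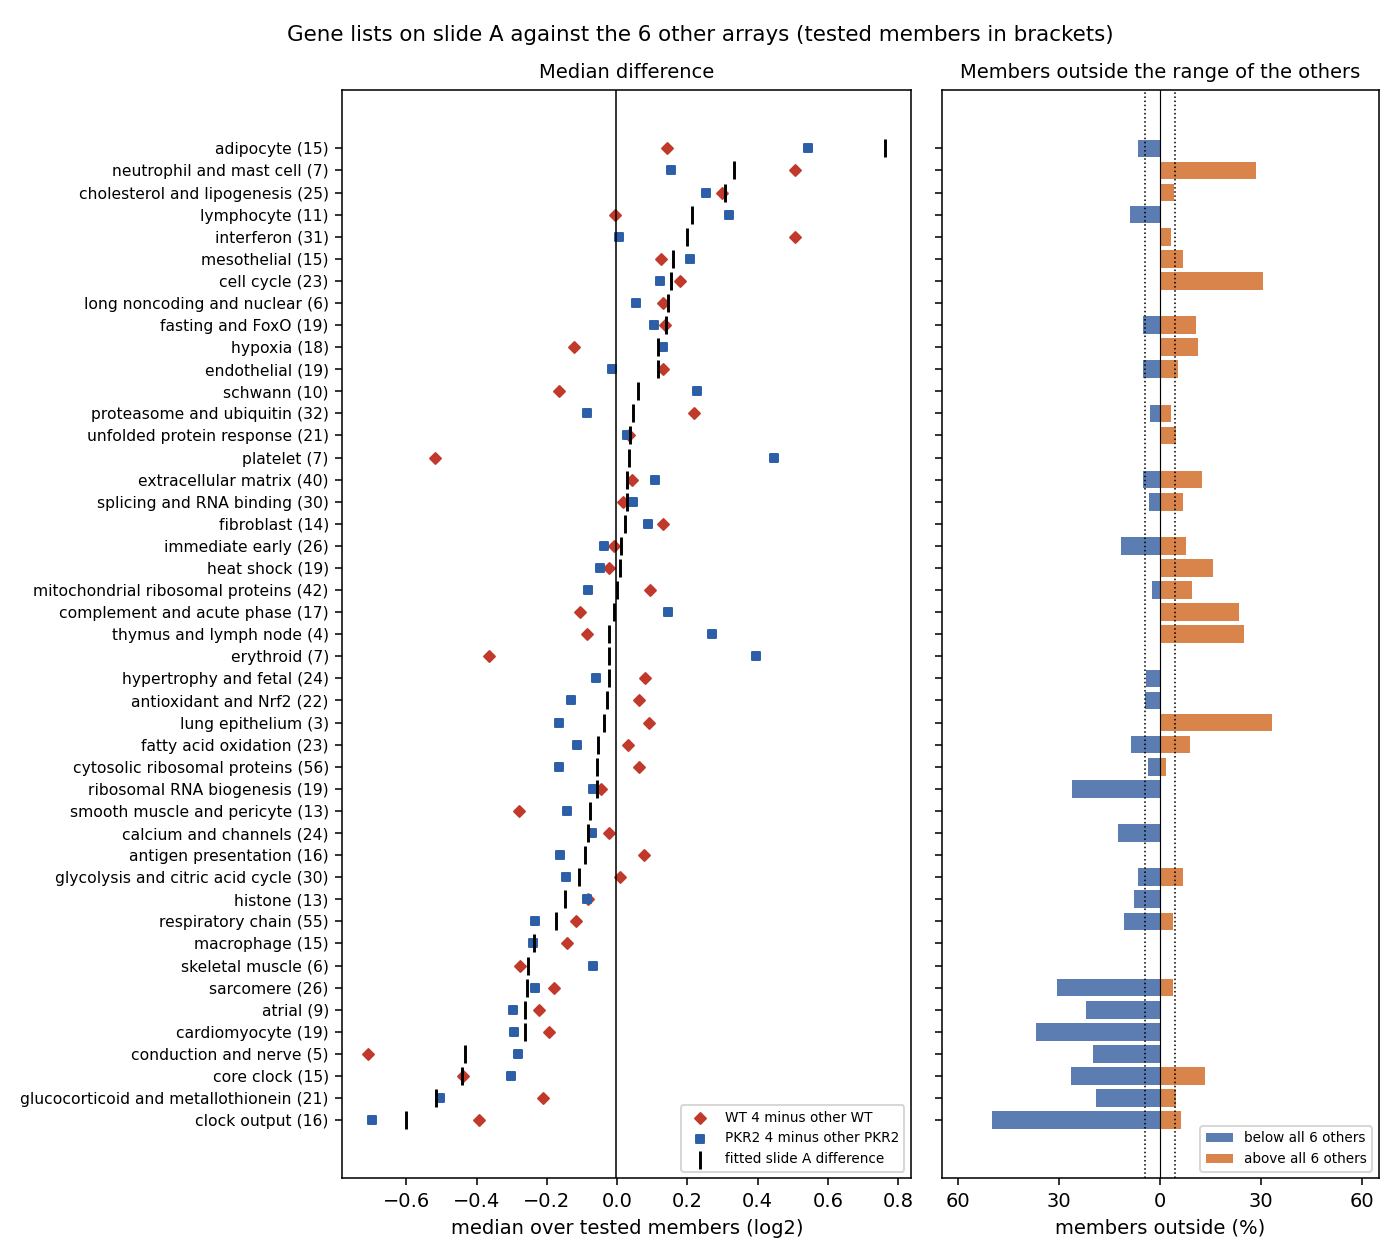
For each list with 3 or more fitted genes, the left panel gives the median log2 difference of slide A and of each of its arrays from the rest of its genotype, and the right panel the percent of members with both slide A arrays above or below all 6 others, dotted lines marking 4.3% and 4.67% over all features. Clock output, glucocorticoid and core clock lists lie lowest on the left, at -0.60, -0.52 and -0.44. The adipocyte list lies highest, at 0.76.

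Whether the 2 genotypes differed on slide A as they did elsewhere was examined by a genotype by slide interaction in limma. The rule for the slide did not use this contrast, but an earlier look at these data had found Lars2 and Rn28s1 apart on WT 4. The interaction counts and p-values are therefore a description. Of 14952 features 1 passed an adjusted p of 0.05 (0.00669%), and 238 had an unadjusted p under 0.05. That feature was a probe for Msl1, a chromatin protein of the MSL complex, at -1.94 on PKR2 4, 4.37 on WT 4 and 4.06 to 4.56 on the others, an interaction of -6.36 ± 0.39 (limma adjusted p = 0.0087). Without WT 2, WT 3 or PKR2 3 in turn the count was 0, and without PKR2 2 it was 2. The 3 other Msl1 probes differed between slide A and the rest by -0.09, 0.19 and -0.27. The next was Tspan17, a tetraspanin (limma adjusted p = 0.0576), at -1.11 on PKR2 4 and 3.02 to 3.46 on all 7 other arrays. With 1 array per genotype on the slide, each interaction compares 2 single arrays, and the Msl1 call comes from 1 probe on 1 array, PKR2 4. The median 95% interval reached 1.14 to either side. No clock gene passed, and the intervals are too wide to show that the 2 genotypes shared the same size of difference.

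With the slide as a term, the genotype comparison gave 0 of 14952 features past an adjusted p of 0.05 in limma (0%), with 343 at an unadjusted p under 0.05 and a smallest adjusted p of 0.148; without PKR2 3 the count was 1. Since 2 of the 6 slides held both genotypes, the slide was also fitted as a block: as a random block (estimated correlation within a slide 0.505) 1 feature, Anks1, passed, with PKR2 minus WT at 2.34 and a limma adjusted p of 0.0247, and as a fixed block, which leaves 1 residual degree of freedom, 0 passed (smallest adjusted p 0.759). Anks1, an ankyrin-repeat signalling adaptor, stood at 3.61 on WT 4, above the other WT arrays at 3.37 to 3.47, and at 6.19 on PKR2 4, among the other PKR2 arrays at 5.06 to 6.27. Prokr2 itself was not well above background on any array, slide A included, so the label PKR2 could not be checked from its probe.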

How the data were processed

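RNA of 8 heart samples (4 WT, 4 PKR2) was read as 1-colour intensity. Per the file headers, the authors read the scans with Feature Extraction version 9.5.1.1 (Agilent), which marks outlier spots and corrects each array for background and spatial trend; probe positions refer to build mm8. This deposited scanner intensity is linear, with no normalization between arrays. The authors' deposited table also holds linear intensity, as whole numbers on a common scale whose making is not stated; it is uncentred (column medians 139 to 144) and served as an alternative.

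Control and flagged spots were left out, log2 processed signal was taken minus the array's 75th percentile, and spots of a probe were averaged. Of 41174 probes, 21544 were well above background on at least 6 arrays with an unflagged spot on all 8. The probe of highest mean signal stood for a gene. RefSeq genes of GRCm38.p6 named 24367 probes by accession, 6307 by symbol and 2425 by synonym; 1523 retained the deposited name, and 6552 were unnamed. Fits used limma 3.58.1 in R 4.3.3 (lmFit, eBayes) with version 1.17.8 of data.table; the models had genotype and slide as terms, Benjamini-Hochberg adjustment over all features at 0.05, and 95% intervals; the code was tested on simulated data. The labels do not say whether the samples were pooled or how they were collected, so p-values measure the spread between these arrays.

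Members and lists were chosen with earlier results of these data known. Named genes are up to 14 per direction with the largest difference among those outside the range of the others and above background on all arrays, those above background in 1 set only, the 2 brightest and up to 4 further members of a list, features past the interaction threshold and control genes; the remaining clock genes, Rn18s, the overlapping glucocorticoid and lipid genes, Tspan17, Wee1, A330023F24Rik, Crocc2, Angptl7, Mthfd1l and Fabp7 were named after their values were seen. A few genes are not reported here, though counts over lists include them. Alternatives were other background corrections, normalizations, probe filters and probe rules, no genotype term, scan range and array position as covariates, 2 other variance models, the slide as a block and leaving out each array. The number of arrays limits the precision: the median 95% interval of a slide A difference reached 0.54 to either side.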

Additional observations from a re-analysis of the deposited data

Results flagged for a closer look

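In a group of 4 arrays, an array was picked out when its distance to the nearest other array, as a share of the group's whole range, exceeded 0.829 (Dixon's test); chance picks out about 1 in 20 groups. Of the 188 groups examined (94 genes in 2 genotypes), 14 were picked out, 8 of them for a slide A array. Slide A and most of these genes were chosen on the same values, so the rate of 1 in 20 does not apply to these groups and the shares are a description. On the slide A arrays this share was 0.842 for Arntl, high on WT 4, and, low on WT 4, 0.846 for Dbp, 0.96 for Bhlhe41 and 0.949 for Klf9. Pcna was high on WT 4 at 0.926. On PKR2 4, Hlf was low at 0.933, Msl1 at 0.946 and Tspan17 at 0.932.

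Outside slide A, PKR2 2 was high for Rn28s1 (0.837), Rn18s (0.888), Mb (0.871) and Tpm1 (0.878). WT 1 was low for Msl1 at 0.866 and PKR2 3 for Anks1 at 0.937. The Msl1 probe was also picked out because the genotype difference on slide A differed from that on the other slides, with an interaction of -6.36 (limma adjusted p = 0.0087).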

How the results depend on the processing

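On slide A, 1 feature (Arntl) passed an adjusted p of 0.05 in limma. The count was 0 with normexp (271 at an unadjusted p under 0.05), the authors' deposited values (609), features above background on all 8 arrays (718, which leaves Arntl out), no filter on dim probes (903), scan range (939) or array position (882) as covariate, trended robust variance (763), and without PKR2 1 and PKR2 2 together (470), the last chosen after seeing the data; leaving out 1 array gave 0 to 3. The Arntl difference ran from 1.35 to 3.05. The interaction count of 1 became 0 with normexp (42 unadjusted), no filter (418), the median of probes (252), scan range (162) and without PKR2 1 and PKR2 2 (278). It became 2 with the authors' values, the filter on all 8 arrays, trended robust variance and normexp after scaling arrays to a common level, also chosen after seeing the data, and 5 with array weights; leaving out 1 array gave 0 to 2. The slide B count of 0 became 32 with array weights and 0 to 1 without 1 array, and the genotype count of 0 became 1 with array position or with the slide as a random block (713 unadjusted) and 0 to 1 without 1 array; with the slide as a fixed block it was 0 (868 unadjusted). Both slide blocks were chosen after seeing the data. The array position fit on slide A equals leaving out WT 1. Without 1 slide A array the features outside the range numbered 1162 higher and 1611 lower (without WT 4) or 2913 and 2355 (without PKR2 4), since a lone array then sets them. Normexp after scaling to a common level gave Per3 -0.76, Tef -0.67 and Bhlhe41 -0.55. List medians kept their sign over all 23 alternatives for clock output (-0.75 to -0.33), core clock (-0.49 to -0.07), glucocorticoid (-0.63 to -0.21) and cell cycle (0.06 to 0.29) genes. The adipocyte (0.06 to 0.94), cholesterol and lipogenesis (0.10 to 0.39) and interferon (0.01 to 0.51) medians also kept theirs. The interaction could not be fitted without a slide A array or without genotype. The number of arrays and signal near background limit dim genes such as Arntl, Per3 and Cry1. The labels carry no replicate numbers; slides A and B are the only pairs across genotypes, and the slide blocks use them.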
